A study of Homo sapiens with 4 samples.

Results

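The genes described here are 10 epithelial junction genes: the cadherin gene CDH1, the adhesion gene EPCAM, the tight junction genes OCLN, TJP1, CLDN1, CLDN4 and CLDN7, the desmosome genes JUP and DSP, and the epithelial transcription factor gene ELF3. They were taken as a list of symbols, and each of the 10 was among the 19430 named genes with a probe on the array. Of the 10, 7 had a probe that was detected, with a detection p below 0.01, on 2 or more of the 4 arrays, as did 11463 genes in all, and 3 did not: CDH1, OCLN and CLDN4. All arrays, controls too, hold RNA of MDA-LM2 shDicer cells. MDA-LM2 is a line of MDA-MB-231 human breast cancer cells selected for metastasis, and shDicer is a hairpin against Dicer. Cells were transfected with siTARBP2-1 or siTARBP2-2, which target TARBP2, 1 array each, or with siControl, 2 arrays, and RNA was taken after 48 h. The design text calls the siRNAs independent of each other and the controls mock-transfected, where the labels name a control siRNA. TARBP2 encodes a double-stranded RNA binding protein that partners Dicer.

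Epithelial cells are held together by a series of junctions along their side walls. Tight junctions seal the gap near the cell top with strands of claudins and occludin, which scaffold proteins such as ZO-1 (TJP1) tie to actin. Adherens junctions join cells through E-cadherin (CDH1) and its catenins, and desmosomes join the keratin filaments of neighbouring cells through desmoplakin (DSP) and plakoglobin (JUP). MDA-MB-231 cells are known as a mesenchymal-like line with little or no E-cadherin, in which such genes are followed as signs of an epithelial state. Repressors of the ZEB and SNAI families bind E-box sequences, CACCTG or CAGGTG, in the promoters of epithelial genes.

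Whether such letters stand near the starts of these genes was looked up in RefSeq promoter windows of build GRCh38.p14, each with 250 bases before and 50 from the start on. Windows were found for 8 of the 10 genes, 14 windows in all, and CDH1 and EPCAM had none. The motif CACCTG, searched on both strands so that CAGGTG counts too, was in at least 1 window of 6 of the 8 genes (OCLN, TJP1, CLDN7, JUP, DSP and ELF3) and in none of CLDN1 and CLDN4. Of all 27305 genes with a window 24.1% held it, and of all windows 20.6%, against 7 of the 14 windows here. The motif GCCNNNGGC, a form of the site bound by AP-2 factors, was in 1 of the 8 genes, JUP, and in 26.6% of all genes. Genes with several starts have more windows and so more chances to match, and a match is a description and not a site. The windows below belong to the 4 genes with the largest rises and to CLDN1, a claudin gene that did not pass the test. Of the 9 windows of those 4 genes, the one with a match was picked for CLDN7, JUP and TJP1, so the choice itself used the motif, whose CACCTG or CAGGTG letters are in capitals. They lie at chr17:7262429-7262728 (minus strand) for CLDN7, chr17:41785927-41786226 (minus strand) for JUP, chr15:29969000-29969299 (minus strand) for TJP1, chr6:7541421-7541720 (plus strand) for DSP and chr3:190322397-190322696 (minus strand) for CLDN1.
CLDN7, inner window: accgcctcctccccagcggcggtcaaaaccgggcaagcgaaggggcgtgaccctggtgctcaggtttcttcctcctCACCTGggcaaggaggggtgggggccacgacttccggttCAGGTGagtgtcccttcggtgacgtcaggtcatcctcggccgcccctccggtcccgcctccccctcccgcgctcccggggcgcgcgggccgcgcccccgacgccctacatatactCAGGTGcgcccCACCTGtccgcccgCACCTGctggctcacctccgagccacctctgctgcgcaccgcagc
JUP, inner window: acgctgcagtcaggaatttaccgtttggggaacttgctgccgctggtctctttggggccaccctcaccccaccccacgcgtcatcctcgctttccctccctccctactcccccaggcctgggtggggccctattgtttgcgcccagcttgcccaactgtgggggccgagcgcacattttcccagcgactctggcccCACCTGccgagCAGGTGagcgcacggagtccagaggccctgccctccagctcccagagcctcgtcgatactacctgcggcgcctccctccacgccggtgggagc
TJP1, outermost window: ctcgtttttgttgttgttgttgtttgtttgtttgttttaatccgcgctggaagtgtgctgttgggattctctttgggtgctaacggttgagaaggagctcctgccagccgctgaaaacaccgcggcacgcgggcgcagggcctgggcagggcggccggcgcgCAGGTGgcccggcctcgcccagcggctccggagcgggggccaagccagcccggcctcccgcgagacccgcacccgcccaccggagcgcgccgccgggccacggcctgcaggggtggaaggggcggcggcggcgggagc
DSP: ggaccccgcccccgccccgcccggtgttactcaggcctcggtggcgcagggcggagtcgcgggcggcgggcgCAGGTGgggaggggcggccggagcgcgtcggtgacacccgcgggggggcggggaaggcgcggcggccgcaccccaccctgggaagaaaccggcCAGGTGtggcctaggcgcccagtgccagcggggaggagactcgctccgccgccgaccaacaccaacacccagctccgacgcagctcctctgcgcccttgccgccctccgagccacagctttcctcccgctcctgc
CLDN1: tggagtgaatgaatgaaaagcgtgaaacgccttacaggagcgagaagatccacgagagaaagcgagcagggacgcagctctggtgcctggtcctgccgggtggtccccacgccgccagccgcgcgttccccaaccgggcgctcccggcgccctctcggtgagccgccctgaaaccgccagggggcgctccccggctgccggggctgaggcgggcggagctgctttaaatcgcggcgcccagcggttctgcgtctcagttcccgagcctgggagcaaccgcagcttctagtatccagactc
The CLDN7 window held 5 matches, the JUP and DSP windows 2 each, and the TJP1 window 1. The outer windows of CLDN7 and JUP and the 3 other windows of TJP1 held none. Which start these cells use was not measured.

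The targeted gene was low with siTARBP2 under the headings used here. The brightest TARBP2 probe had linear signals of 113 and 101 on the siTARBP2 arrays, against 653 and 630 on the siControl arrays. The share of the 47323 probes detected ran from 39.1% to 40.8% by array. In the authors' second table the groups stand crosswise to these headings. The headings of the non-normalized table were used because TARBP2 is low there with siTARBP2, so its low level is no separate check of the labels. Nothing in the labels says that the arrays came from separate cultures, so p-values reflect no more than how far these samples differ. The siControl arrays are possibly technical repeats. The siTARBP2 arrays differ in siRNA, so any difference between the siRNAs is part of their spread. Fewer cells with a transcript and less transcript per cell cannot be told apart in bulk RNA. An exact permutation of 2 against 2 arrays cannot give a p below 0.333, so the calls rest on limma's variance model, which is shared across all genes, and on very few arrays. The mesenchymal marker VIM had signals of 24671 and 26535 with siTARBP2, against 24748 and 24238 with siControl, and no probe of CDH1 or of the estrogen and progesterone receptor genes ESR1 and PGR was detected. Of the other genes listed to check the line, CD44 was detected on all 4 arrays by each of its probes. Its brightest probe stood at a log2 difference of 0.13 and did not pass (limma adjusted p = 0.0622 at probe level). Another was called higher, at 0.30 (limma adjusted p = 0.00278 at probe level), and the dimmest, at 0.18, was not. CDH2, also listed as a mesenchymal marker, was detected on 3 arrays and called higher, at 0.61, with limits given below. None of the 3 probes of the mesenchymal gene FN1 was detected on 2 arrays. Listed as low, EPCAM was nevertheless detected on all 4 arrays. So was 1 of the 3 probes of ERBB2, with signals of 669 and 697 with siTARBP2, against 755 and 806 with siControl, a log2 difference of -0.27 (limma adjusted p = 0.0127 at probe level).

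Most detected junction genes were higher after TARBP2 knockdown. Of the 7 detected, 6 rose and 0 fell (limma adjusted p under 0.05, adjusted over all genes), against 17.1% of all 11463 genes called higher, 17.2% called lower and 34.3% called either way. The genes were chosen with earlier results of these data known, so this contrast with all genes is a description and no independent test. The 6 are JUP, CLDN7, TJP1, DSP, ELF3 and EPCAM, and their changes were moderate, from 1.26-fold for EPCAM to 1.99-fold for JUP. The gene that did not pass was CLDN1. The median log2 fold change of the 7 was 0.60, against -0.0094 over all genes, whose 5th and 95th percentiles were -0.43 and 0.49. Both siTARBP2 arrays lay above both siControl arrays for the same 6 genes, as for 32.5% of all genes, and below them for CLDN1, as for 34.6%. Without quantile normalization, on arrays scaled to a common median, 66.2% of all calls were higher in place of 49.8%, and the same count of 6 members was called.

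**Figure D1:**
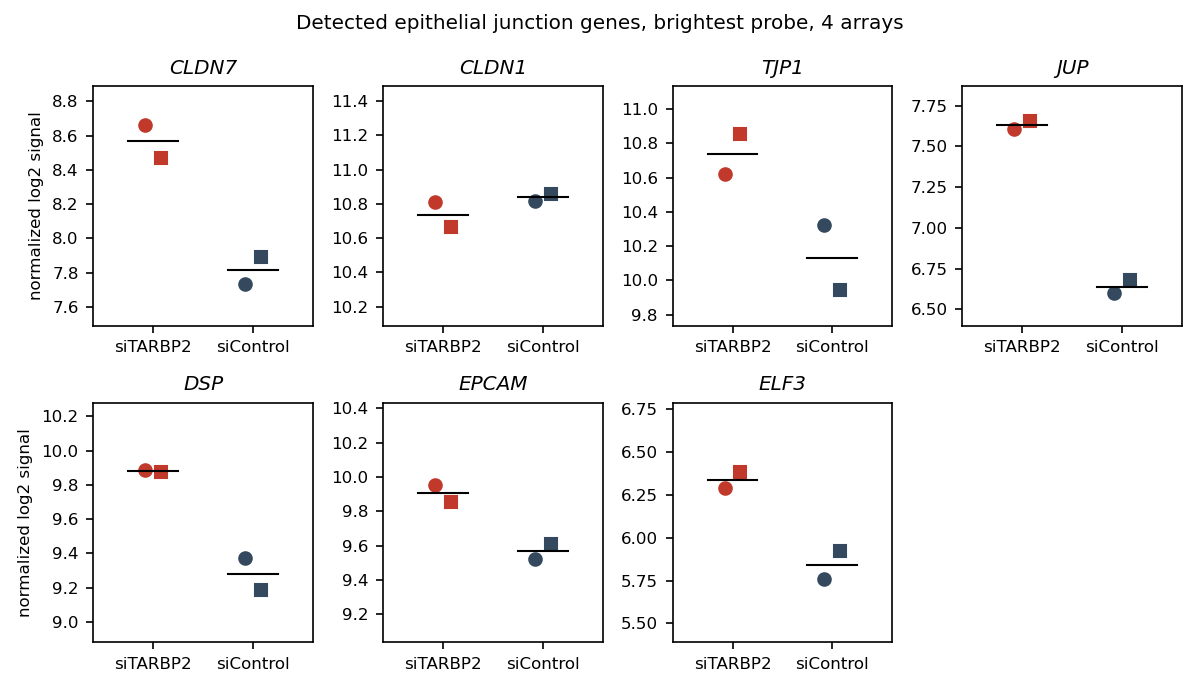
Normalized log2 signal of the brightest probe of the 7 detected genes (y axis, its range set per gene) on the siTARBP2 arrays (red) and the siControl arrays (blue). Circles are arrays numbered 1, squares those numbered 2, and lines are group means; for 6 genes both red points lie above both blue points, and for CLDN1 the group means differ by 0.10.

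The tight junction genes moved unequally. CLDN7 encodes claudin 7, a strand protein that also binds EpCAM. Its normalized log2 signal was 8.66 and 8.47 on the siTARBP2 arrays, against 7.73 and 7.89 on the siControl arrays. The groups did not overlap, with a mean of 8.57 ± 0.13 in siTARBP2 and 7.81 ± 0.11 in siControl (SD, n = 2 each). This is a log2 difference of 0.75 ± 0.09 (SE), which is 1.69-fold higher (limma adjusted p = 2.63e-05). TJP1 encodes ZO-1, the scaffold below the strands. Its brightest probe read 10.62 and 10.86 with siTARBP2, against 10.32 and 9.94 with siControl. Both siTARBP2 arrays were higher, and the siControl arrays stood 0.38 apart, the widest gap within a group among the brightest probes of these genes. The log2 difference was 0.61 ± 0.10 (SE, limma adjusted p = 5.16e-04). A second TJP1 probe gave 10.22 and 10.44 with siTARBP2, against 9.75 and 9.30 with siControl, a log2 difference of 0.81 ± 0.11 (SE). The probes are listed under NM_003257 and NM_175610, and whether they tell these transcripts apart was not tested.

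CLDN1 encodes claudin 1, another strand protein. It read 10.81 and 10.66 with siTARBP2, against 10.82 and 10.86 with siControl. The siTARBP2 arrays were both the lower ones, but siTARBP2-1 by 0.007 from the nearer siControl array. The log2 difference was -0.10 ± 0.06 (SE, limma adjusted p = 0.239). It was -0.17 without siTARBP2-1 and -0.03 without siTARBP2-2. CLDN4 and OCLN were not detected on any array. The CLDN4 probe had signals of 61.5 and 65.3 with siTARBP2, against 60.0 and 56.1 with siControl, with detection p between 0.216 and 0.690. OCLN, the occludin gene, has 2 probes, of which 1 had signals of 45.3 and 48.6 with siTARBP2, against 49.5 and 54.1 with siControl. Detection p for both probes lay between 0.770 and 0.987. A pseudogene copy of OCLN, OCLNP1, lies on the same chromosome. For genes below detection no fold is given, and a change in them was not detectable here.

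The desmosome genes gave the largest rise of the list. JUP encodes plakoglobin, a catenin found in desmosomes and in adherens junctions. Its bright probe read 7.61 and 7.65 with siTARBP2, against 6.60 and 6.68 with siControl. The arrays within each group lay within 0.08 of each other while the groups stood about 1 log2 unit apart. The log2 difference was 0.99 ± 0.10 (SE), which is 1.99-fold higher (limma adjusted p = 5.73e-06), the rise of rank 59 among all 11463 genes. Its size depended on the processing: 0.75 without background correction, 0.80 with a larger offset and 0.72 in the second table, each still called. The other JUP probes, 1 under the same accession NM_002230 and 1 under NM_021991, were not detected on any array, so the rise rests on 1 probe. DSP encodes desmoplakin, which ties desmosomes to keratin filaments. Its bright probe read 9.89 and 9.88 with siTARBP2, against 9.38 and 9.18 with siControl, and the groups were apart by more than either spread. The log2 difference was 0.60 ± 0.07 (SE, limma adjusted p = 3.11e-05). A dimmer DSP probe of the same accession, NM_001008844, did not pass at probe level. It read 6.21 and 6.08 with siTARBP2, against 5.73 and 6.09 with siControl, and its groups overlapped, with a log2 difference of 0.24 ± 0.16 (SE, limma adjusted p = 0.288). The third DSP probe, under NM_004415, was not detected.

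**Figure D2:**
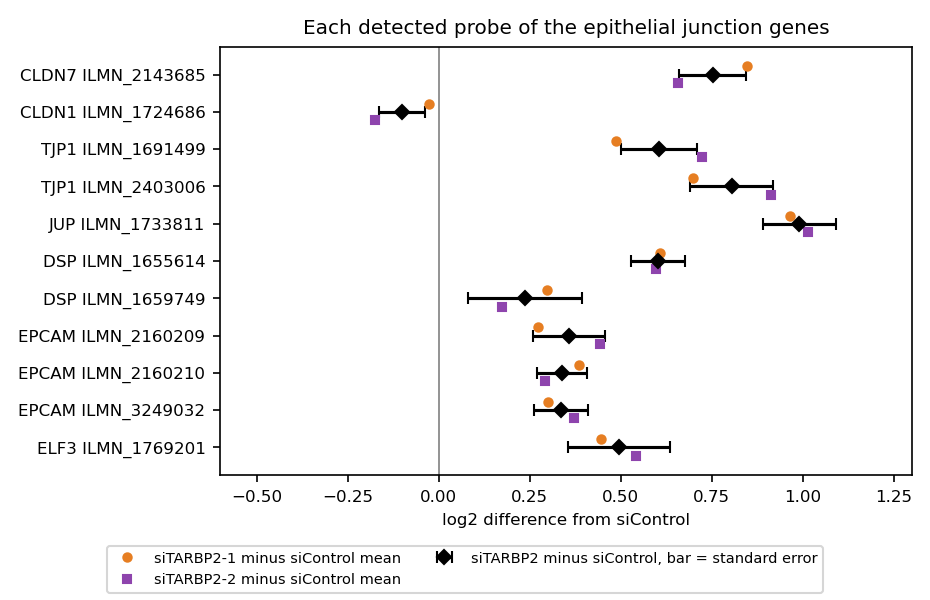
Log2 difference from siControl (x axis) for each of the 11 detected probes of the 7 genes (rows). Black diamonds with standard error bars are siTARBP2 minus siControl, and coloured points are siTARBP2-1 (circles) and siTARBP2-2 (squares) minus the siControl mean; CLDN1 lies below 0 and the dim DSP probe ILMN_1659749 lies nearest to 0 of the others.

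Counted by probe, 18 probes were joined to the 10 genes, of which 11 were detected. Among those 9 were called higher and 0 lower in a fit over all 19295 detected probes, against 14.1% of all detected probes called higher, 13.9% called lower and 28% either way. Probes of 1 gene share its transcripts and are not separate evidence. The 3 probes of EPCAM agree within their standard errors. EPCAM encodes a homophilic adhesion protein of epithelia that sits along the side wall of the cell. Its brightest probe read 9.95 and 9.86 with siTARBP2, against 9.52 and 9.61 with siControl, with no overlap. The log2 difference was 0.34 ± 0.07 (SE), the smallest of the rises (limma adjusted p = 0.00152), and the other probes gave 0.36 and 0.34.

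The E-cadherin gene itself was at background. The single CDH1 probe had signals of 68.0 and 62.9 with siTARBP2, against 51.6 and 58.5 with siControl. Its detection p was 0.127 and 0.295 with siTARBP2, against 0.808 and 0.570 with siControl. Both siTARBP2 signals were the higher ones, but none was told apart from the negative controls, so no fold is given and a change of CDH1 was not detectable here. ELF3 encodes an ETS-family transcription factor of epithelia. It read 6.29 and 6.38 with siTARBP2, against 5.76 and 5.92 with siControl, on a probe detected on all 4 arrays with signals of 95.8 to 130. The log2 difference was 0.49 ± 0.14 (SE, limma adjusted p = 0.0141). This is the least firm of the 6 calls: it ended without siTARBP2-2 (limma adjusted p = 0.105), without siControl-1 (0.0795) and with no detection filter (0.0621). Its value was 0.30 without background correction, 0.33 with a larger offset and 0.29 in the second table, each still called.

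**Figure D3:**
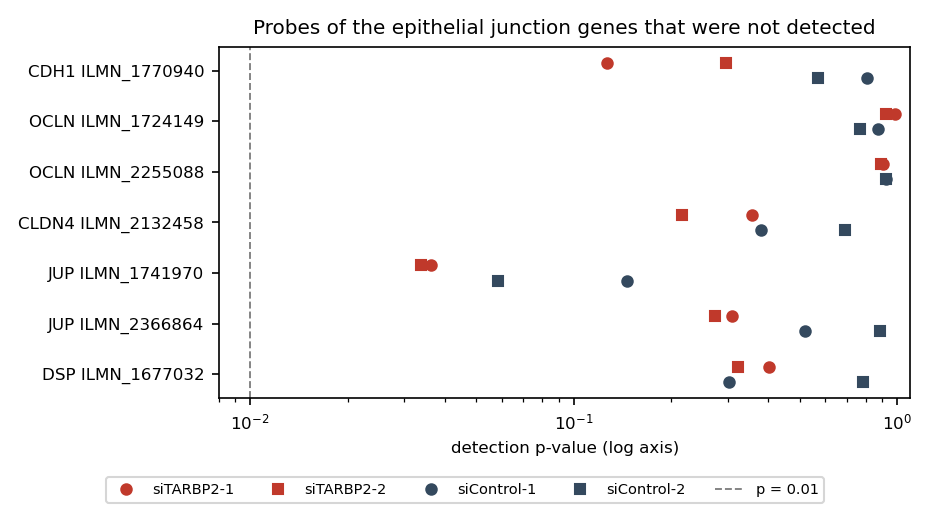
Detection p-value (x axis, log scale) of the 7 probes of these genes that were not detected, on the siTARBP2 arrays (red) and the siControl arrays (blue). All points lie right of the dashed line at 0.01; the lowest are those of the JUP probe ILMN_1741970 with siTARBP2, at 0.034 and 0.036.

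Taken alone against the same siControl arrays, siTARBP2-1 had 5 of the 7 genes called higher and 0 lower, against 12.9% of all genes called higher, 12.8% lower and 25.7% either way. With siTARBP2-2 it was 6 and 0, against 14% of all genes called higher, 14.1% lower and 28.2% either way. Each siRNA is 1 array and the siControl arrays enter both comparisons, so these are not independent. JUP stood at 0.97 with siTARBP2-1 and 1.02 with siTARBP2-2, CLDN7 at 0.85 and 0.66, DSP at 0.61 and 0.60, TJP1 at 0.49 and 0.72, and EPCAM at 0.39 and 0.29, as log2 differences from siControl. ELF3, at 0.45 and 0.54, was the gene called with siTARBP2-2 and not with siTARBP2-1 (limma adjusted p = 0.0425 and 0.0934). CLDN1 was at -0.03 and -0.17 and was called with neither (limma adjusted p = 0.798 and 0.0656). Called higher with each siRNA were 5 members, as were 10.2% of all genes. Compared directly, 0 of the 7 genes differed between the siRNAs, against 0.0174% of all genes, 0.00872% in each direction, and 0 had an unadjusted limma p under 0.05, against 5.93% of all genes. The differences, siTARBP2-1 minus siTARBP2-2, ran from -0.24 ± 0.13 (SE) for TJP1 to 0.19 ± 0.12 (SE) for CLDN7, so differences of that size between the siRNAs cannot be told from noise here.

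Other junction genes, taken from lists of the same structures without the 10 genes, were also more often called higher than lower. Their counts are to be read beside the 17.1% of all genes called higher, the 17.2% called lower and the 34.3% called either way. These lists too were chosen with earlier results of these data known, so their counts are no independent test. Of 40 other tight junction genes 23 were detected, and of these 11 rose and 1 fell, with a median log2 fold change of 0.24 (0.23 over the 20 detected on all 4 arrays). PRKCZ, the atypical protein kinase C of the polarity complexes, rose by 0.61 ± 0.07 (SE), and CGNL1 and CGN, the paracingulin and cingulin genes that link the junction to actin, rose by 0.58 and 0.48. LSR, which marks corners where 3 cells meet, rose by 0.41. F11R, which encodes the adhesion molecule JAM-A, was called at 0.55, but it was detected on both siTARBP2 arrays and on 1 of the 2 siControl arrays, so the size of its difference is uncertain. The calls of F11R and LSR ended without siTARBP2-1 (limma adjusted p = 0.258 and 0.0650), without siTARBP2-2 (0.0688 and 0.0822), without siControl-2 (0.222 and 0.0969) and with no detection filter (0.0553 and 0.0877). In the second table they stood at 0.27 each, and F11R at 0.28 without background correction and 0.30 with a larger offset. The 1 gene that fell was CLDN12, a claudin, at -0.28 ± 0.06 (SE), picked after seeing its value.

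Of 22 other adherens junction genes 18 were detected, 7 of them higher and 1 lower, with a median of 0.22 (0.17 over the 16 detected on all 4 arrays), against 17.1% of all genes called higher. CTNNBIP1, an inhibitor of beta-catenin binding to TCF factors, rose by 1.12 ± 0.07 (SE), more than any of the 10 genes. CDH4, the R-cadherin gene, rose by 0.56, and LIMA1 and AJUBA, whose proteins link the junction to actin, by 0.50 and 0.46. CDH2, the N-cadherin gene, is counted among the 7 but was also listed as a mesenchymal marker of this line. Its rise is therefore no sign of an epithelial state. CDH2 was called at 0.61, but it was detected on both siTARBP2 arrays and on 1 of the 2 siControl arrays, so the size of its difference is uncertain. Its call ended without siTARBP2-1 (limma adjusted p = 0.0679), siTARBP2-2 (0.212) or siControl-2 (0.252), with no detection filter (0.0591) and without a variance trend (0.0607), and that of AJUBA with the mean of its probes (0.165). Without siControl-2 the value for CDH2 was 0.35, without background correction 0.31, with a larger offset 0.33 and 0.29 in the second table, and with the mean of probes that for AJUBA was 0.24. The gene that fell, EPB41L5, a cytoskeletal linker, gave -0.38 and was picked after seeing its value. The catenin genes CTNNA1 and CTNND1 did not pass, at 0.05 ± 0.05 and 0.15 ± 0.18 (SE). CTNND1 read 5.48 and 5.75 with siTARBP2, against 5.59 and 5.34 with siControl. That is close to the lowest detected values, 5.18 to 5.31 by array, so a change of CTNND1 could be missed. CTNNB1 (beta-catenin) did not pass either, and read 6.68 and 7.49 with siTARBP2, against 6.96 and 6.67 with siControl. For CTNNB1 siTARBP2-1 lay between the siControl arrays and siTARBP2-2 above both, and the log2 difference was 0.27. These catenin genes were not among those the naming rule takes and were picked after seeing their values.

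Of 22 other desmosome and hemidesmosome genes 15 were detected, 11 of them higher and 0 lower, with a median of 0.29 (0.32 over the 14 detected on all 4 arrays). Over all genes 17.1% were called higher and 17.2% lower. PKP2, the plakophilin that joins desmosomal cadherins to desmoplakin, read 9.20 and 9.40 with siTARBP2, against 8.28 and 8.28 with siControl. Its groups stood far apart for their spread, with a log2 difference of 1.02 ± 0.08 (SE, limma adjusted p = 6.77e-07). The desmocollin gene DSC2 rose by 0.36. The hemidesmosome genes ITGA6, COL17A1 and ITGB4, which anchor epithelial cells to the basement membrane, rose by 0.83, 0.65 and 0.55.

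**Figure D4:**
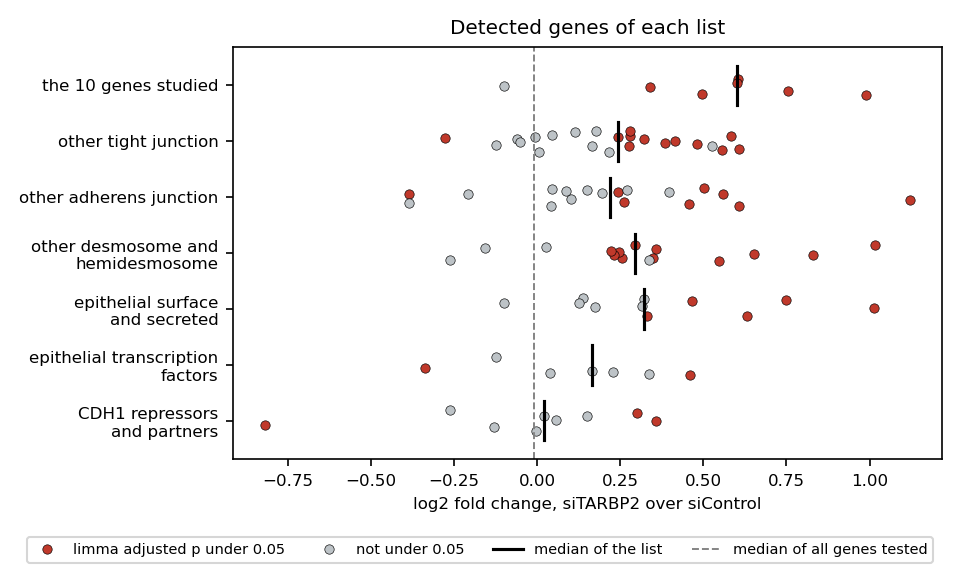
Log2 fold change, siTARBP2 over siControl (x axis), of every detected gene of 7 lists (rows). Red points passed the test and grey points did not, black lines are list medians, and the dashed line is the median of all genes at -0.0094; the line of the 10 genes studied stands at 0.60 and that of the CDH1 repressors and partners at 0.02.

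Epithelial genes outside the junctions were counted in separate lists, also chosen with earlier results of these data known. Of 20 genes for surface and secreted proteins 11 were detected, 5 higher and 0 lower, against 17.1% and 17.2% of all genes, with a median of 0.32. LCN2, a secreted lipocalin, rose by 1.01, MAL2, a transport protein of polarized cells, by 0.75, SPINT2, a serine protease inhibitor, by 0.63, TSPAN1, a tetraspanin, by 0.47 and AP1M2, an epithelial clathrin adaptor subunit, by 0.33. The call of TSPAN1 ended without siTARBP2-1 (limma adjusted p = 0.108), siTARBP2-2 (0.0719) or siControl-2 (0.209), with no detection filter (0.107) and without a variance trend (0.0611). Without siControl-2 its value was 0.26, without background correction 0.31 and 0.30 in the second table, where LCN2 stood at 0.66, still called. Of 20 genes for epithelial transcription factors 7 were detected, 1 higher and 1 lower, which is near the 34.3% of all genes called either way and is no result about the list. Its median was 0.17, and 0.04 over the 5 detected on all 4 arrays. The AP-2 genes TFAP2C and TFAP2A moved in opposite directions, at 0.46 and -0.34. The call of TFAP2C ended without a variance trend (limma adjusted p = 0.0629), and its value was 0.30 without siControl-2. The call of TFAP2A ended without siTARBP2-2 (limma adjusted p = 0.0824), without siControl-1 (0.170), with no detection filter (0.0643) and without a variance trend (0.0644). Its value was -0.21 without siControl-1 and -0.68 with the mean of its probes.

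Of 17 genes of known CDH1 repressors and their partners 9 were detected, 2 higher and 1 lower, with a median of 0.02. That share is near the 34.3% of all genes called either way and is no result about the list. ZEB2, an E-box repressor, read 6.98 and 6.87 with siTARBP2, against 7.77 and 7.72 with siControl. The groups did not overlap, and the log2 difference was -0.82 ± 0.09 (SE, limma adjusted p = 2.11e-05). ZEB1, its close relative, read 7.20 and 7.41 with siTARBP2, against 7.51 and 7.62 with siControl. Both siTARBP2 arrays were lower, but the difference of -0.26 ± 0.10 (SE) did not pass (limma adjusted p = 0.0576). It passed without siTARBP2-2 (-0.37, limma adjusted p = 0.0366) and was -0.15 without siTARBP2-1. SNAI2, the repressor also called Slug, rose by 0.30 ± 0.08 (SE, limma adjusted p = 0.00796), a call that ended without siTARBP2-2 (0.0895), without siControl-2 (0.0601) and without a variance trend (0.0804), while a second SNAI2 probe gave 0.31. Without siTARBP2-2 the value for SNAI2 was 0.18. TCF3, the E2A factor, rose by 0.36 ± 0.07 (SE). SNAI1 and TWIST1 were not detected on any array. Whether these levels bear on those of the junction genes was not tested.

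**Figure D5:**
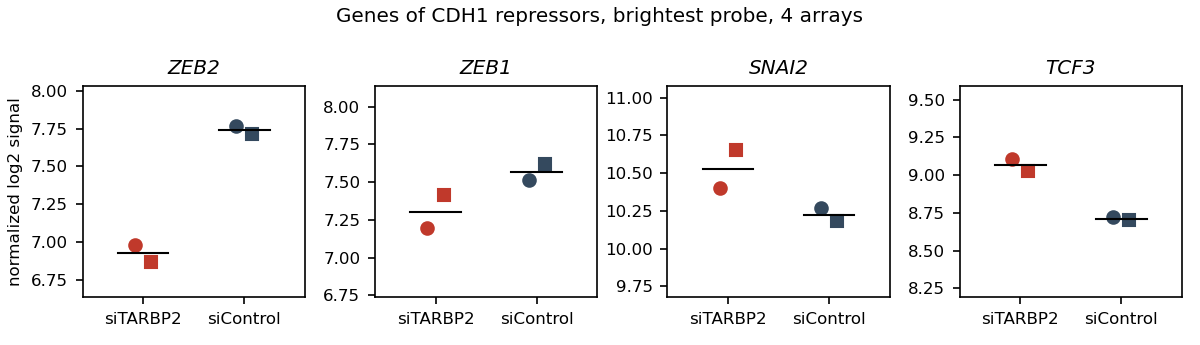
Normalized log2 signal of the brightest probe of ZEB2, ZEB1, SNAI2 and TCF3 (y axis, its range set per gene) on the siTARBP2 arrays (red) and the siControl arrays (blue). Circles are arrays numbered 1, squares those numbered 2, and lines are group means; ZEB2 is lower by 0.82 with siTARBP2 and TCF3 higher by 0.36.

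Markers of cells that a culture of this line should lack were read on the same arrays. Of 7 blood markers 3 were detected (CD14, CD68 and ITGAM) and 0 were called. The summed signal of the list, undetected genes included, was 6037 and 5445 with siTARBP2, against 5131 and 5516 with siControl. Most of that sum was CD68, with 5372 and 4813 with siTARBP2, against 4536 and 4916 with siControl, so it says little of the other blood markers. Of 10 endothelial and fibroblast markers 4 were detected (ACTA2, LUM, PDGFRB and PECAM1), and 2 rose, LUM by 0.44 and ACTA2 by 0.26. Over all genes 17.1% were called higher, 17.2% lower and 34.3% either way, so counts of so few genes are no result about either marker list. The summed signal was 974 and 981 with siTARBP2, against 872 and 897 with siControl. The call of ACTA2 ended without any 1 of the 4 arrays (limma adjusted p between 0.0951 and 0.133), that of LUM without siTARBP2-2 (0.225), siControl-1 (0.0965) or siControl-2 (0.0622), and both with no detection filter (0.128 and 0.0997). LUM stood at 0.27 without background correction and 0.26 in the second table, still called. Their part in the rise of the junction genes was not tested.

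The authors' deposited table gives 1 log fold change per accession on a compressed scale, and marks accessions counted as up-regulated. It marks TJP1 (0.57 and 0.73 for its accessions), CLDN7 (0.52), DSP (0.30 for NM_001008844), EPCAM (0.26) and JUP (0.26 for NM_002230). In the authors' deposited table ELF3 stands at 0.16 and is not marked, nor are CLDN1 (-0.09), CDH1 (0.10), CLDN4 (0.05) and OCLN (-0.02). These values come from the same arrays, averaged over an accession's probes whether or not detected, and were used to name the probes, so they are no separate evidence.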

How the data were processed

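Total RNA of 4 samples was hybridised to Illumina BeadChips, 1 array each. The authors deposited signal intensity on a linear scale with a detection p-value per probe and array, per the file headers. Their second table holds intensity values that share a lowest and highest value, and the submitters' processing notes name lumi without a version. Judged by its range, that table is linear and uncentred, and how it was normalized is unknown. The deposited fold changes per accession are a score on a log-like scale, and a mark of up-regulated accessions is a separate column of other kind, per the file headers.

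No probe annotation was used. Of 39747 accessions, 39687 had a deposited fold change that was matched by a difference of means, averaged over an accession's probes. The means were taken after a fitted inverse hyperbolic sine of the second table's intensities, with its groups crossed. Probes were joined to accessions by that difference within 1e-09: 33116 accessions matched a single probe and 6571 several. Sets of several probes comprised 6206 of neighbouring rows and 365 of other rows, among them EPCAM. Searches on values shifted by a small amount joined 18, 21 and 3. Unversioned accessions were looked up in the RefSeq gene table, and 28406 probes received a symbol. Single probes matched for 33131 with the groups crossed and 29 with the groups as labelled.

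Intensities were background-corrected and quantile-normalized (neqc, offset 16, limma 3.58.1, R 4.3.3). Probes detected (p under 0.01) on at least 2 of 4 arrays were kept, 19295, and the brightest stood for each of 11463 genes. Groups, from the transfection labels, were compared by limma (lmFit, then eBayes using a mean-variance trend). P-values are two-sided, Benjamini-Hochberg adjusted across all genes, and called at 0.05. The siRNAs were also fitted as separate groups of 1 array, whose spread is then assumed to equal that of the siControl arrays. The test was checked on simulated data. Alternatives were other normalizations, offsets, filters, variance models and probe rules, the second table, a replicate block, and leaving out each array. List medians over genes detected on all 4 arrays were added after seeing the data. The number of arrays limits the precision.

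The genes and lists were chosen with earlier results of these data known, so no p is adjusted over a list alone. Named from each list were the 5 called genes with the largest changes, with ZEB1, ZEB2, SNAI1, SNAI2 and TWIST1 whatever their values. Named outside this rule were the genes studied, TARBP2, and genes listed as markers of the line or of other cell types. Any other gene is marked as picked after seeing its value. A gene of the lists is not reported here.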

Additional observations from a re-analysis of the deposited data

How the results depend on the processing

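The count of 6 members called higher was 5 or 6 under the 15 alternatives, and that of members called lower was 0 in each. JUP, CLDN7, TJP1, DSP and EPCAM kept direction and call under all 15, and CLDN1 its direction and its missed call. ELF3 lost its call under the 3 settings named with it. Leaving out an array, its log2 difference was 0.42 to 0.58. Without a variance trend the members called with siTARBP2-1 alone fell to 2 and with siTARBP2-2 alone to 2, against 5 and 6; with the other 9 alternatives these counts stayed within 1.5 times, and that between the siRNAs stayed at 0 in all 10. Over all genes 2697 to 3997 were called, against 3930. The genes called lower were 1172 with median scaling and 1300 without siControl-2, against 1973. Samples that share a number did not deviate together (correlation over genes 0.00182), so the numbers are not taken as pairs. With the replicate block 3983 genes and 6 members were called, and the block changed 1 call of those tested, that of ZEB1 (limma adjusted p = 0.0434). Probes near background limit what can be said of CDH1, OCLN and CLDN4.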
